A study of Mus musculus with 16 samples.

Results

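Tcf7 and Lef1 encode TCF-1 and LEF-1, and their loci were followed through 12 peak lists of chromatin immunoprecipitation with sequencing (ChIP-seq) from mouse CD8+ T cells. They are 2 of the 26180 mouse genes with a curated RefSeq transcription start site (TSS), and both were chosen by name. Every peak that overlapped a gene body or its 60 kb flanks was taken, which gave 151 of the 214352 peaks of the 12 lists. These peaks were told apart as TSS (within 1 kb of any TSS), intron or intergenic. None of them lay in an exon alone.

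CD8+ T cells came from spleens of OT1 mice, which carry a transgenic T-cell receptor, and were cultured in vitro. Anti-CD3 and anti-CD28 activated them for 48 h, followed by 3 days of expansion in IL-2. GSK2879552 (hereafter GSK) inactivates LSD1 irreversibly. It was present at 0.5 μM throughout, and the control cells received vehicle (Veh). In both treatments, 6 antibodies were used with 1 library each: to RNA polymerase II (Pol II), to LSD1, and to the histone marks H3K4me1, H3K4me2, H3K4me3 and H3K27ac. The study states that its ChIP-seq was repeated, but the lists used here hold no replicate. No difference could therefore be set against a spread between replicates, and none was tested. The cells are a bulk culture, so fewer cells that carry a mark and less of the mark in each cell cannot be told apart. All values describe cells in culture, with the same receptor and with stimulation by antibodies.

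TCF-1 and LEF-1 are related HMG-box transcription factors that bind the same short DNA sequence. They recruit β-catenin as a co-activator or TLE proteins as co-repressors. TCF-1 is needed for early T-cell development and for the persistence of memory and progenitor-like CD8+ T cells, and LEF-1 overlaps with it in function. Both are high in naive T cells and decline in effector cells. LSD1 demethylates H3K4me1 and H3K4me2, and acts in complexes with transcription factors such as GFI1. H3K4me3 marks promoters, H3K4me1 without H3K4me3 is common at enhancers, and H3K27ac marks active promoters and enhancers.

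In the mm10 build, Tcf7 (gene ID 21414) lies on the minus strand at chr11:52246527-52283383. Its curated transcripts start at positions 52283014 and 52282595 and both encode 303 residues, while predicted transcripts from 52283383 encode up to 516 residues. Lef1 (gene ID 16842) lies on the plus strand at chr3:131110297-131224357. Its 7 curated transcripts start at 4 positions, 131110297, 131110323, 131112791 and 131156294. The first of these gives the 397-residue protein, and the last, 46.0 kb into the gene, gives a protein of 216 residues. Distances below are in kb from position 52283014 for Tcf7 and from 131110297 for Lef1, along the direction of transcription. The flanks also hold the promoters of Skp1 (a ubiquitin ligase subunit) and Olfr1371 (an olfactory receptor) at Tcf7, and of Hadh (a mitochondrial fatty-acid oxidation enzyme) at Lef1.

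The DNA under the LSD1 peaks shows which sequences carried the strongest and the most different signals. Each line is the 151 bases around a peak summit on the strand of the gene, in the mm10 build. Pairs are named by the distance of their Veh summit. The GSK summits shown for the −16.7 kb and −53.0 kb pairs lie at −16.8 and −52.8 kb. Capitals mark the core motifs searched on both strands: TCF/LEF as CTTTGA, RUNX as TGTGGT, ETS as AGGAAG, GFI1 as AATCNNNGC and AP-1 as TGANTCA. The first 5 are from Tcf7 and the last 5 from Lef1.
Tcf7 −11.3 kb, Veh summit, lowest GSK to Veh ratio of LSD1 at Tcf7, chr11:52294195-52294345: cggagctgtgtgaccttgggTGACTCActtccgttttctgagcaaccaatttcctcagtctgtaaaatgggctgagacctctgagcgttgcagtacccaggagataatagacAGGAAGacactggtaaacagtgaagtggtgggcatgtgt
Tcf7 −16.7 kb, GSK summit, highest LSD1 ratio at Tcf7, chr11:52299693-52299843: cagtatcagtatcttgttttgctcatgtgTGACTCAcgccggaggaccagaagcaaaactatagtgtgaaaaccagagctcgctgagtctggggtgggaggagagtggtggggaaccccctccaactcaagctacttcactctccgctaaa
Tcf7 −31.2 kb, Veh summit, most significant LSD1 peak of the locus, chr11:52314130-52314280: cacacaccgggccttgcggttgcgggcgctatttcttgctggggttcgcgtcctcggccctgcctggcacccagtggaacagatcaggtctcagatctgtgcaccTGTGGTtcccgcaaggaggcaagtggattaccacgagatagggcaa
Tcf7 −35.5 kb, Veh summit, the upstream element with most antibodies, chr11:52318483-52318633: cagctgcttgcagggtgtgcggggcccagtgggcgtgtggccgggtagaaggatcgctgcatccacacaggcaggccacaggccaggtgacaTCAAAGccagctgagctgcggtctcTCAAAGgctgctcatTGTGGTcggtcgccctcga
Tcf7 promoter, GSK summit, no Veh peak, chr11:52282605-52282755: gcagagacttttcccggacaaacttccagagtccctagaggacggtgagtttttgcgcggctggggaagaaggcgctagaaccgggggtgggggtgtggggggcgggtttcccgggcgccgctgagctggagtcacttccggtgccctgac
Lef1 −53.0 kb, GSK summit, highest LSD1 ratio at Lef1, chr3:131057454-131057604: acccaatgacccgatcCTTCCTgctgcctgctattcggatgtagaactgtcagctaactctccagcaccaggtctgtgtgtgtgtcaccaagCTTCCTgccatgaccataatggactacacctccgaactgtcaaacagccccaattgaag
Lef1 +43.8 kb, Veh summit, lowest LSD1 ratio at Lef1, chr3:131154012-131154162: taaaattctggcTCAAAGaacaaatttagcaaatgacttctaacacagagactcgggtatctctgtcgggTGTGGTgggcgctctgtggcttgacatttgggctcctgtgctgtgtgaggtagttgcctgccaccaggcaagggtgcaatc
Lef1 +47.3 kb, Veh summit, chr3:131157549-131157699: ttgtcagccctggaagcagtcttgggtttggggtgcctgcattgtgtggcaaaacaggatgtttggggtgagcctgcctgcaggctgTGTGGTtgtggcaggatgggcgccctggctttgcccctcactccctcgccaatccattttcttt
Lef1 +98.4 kb, Veh summit, strongest LSD1 peak of both loci, chr3:131208631-131208781: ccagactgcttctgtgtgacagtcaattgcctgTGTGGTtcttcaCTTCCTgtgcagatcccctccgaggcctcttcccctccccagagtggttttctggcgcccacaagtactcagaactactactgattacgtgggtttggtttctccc
Lef1 promoter, Veh summit, broad weak LSD1, chr3:131111811-131111961: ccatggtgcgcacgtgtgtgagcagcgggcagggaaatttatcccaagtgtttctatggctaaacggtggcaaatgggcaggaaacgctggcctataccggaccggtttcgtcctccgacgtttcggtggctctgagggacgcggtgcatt
A TCF/LEF core, read here as TCAAAG on the gene's strand, occurred 2 times at the −35.5 kb summit of Tcf7, next to a RUNX core. It occurred 1 time, again with a RUNX core, at the +43.8 kb summit of Lef1. The strongest LSD1 peak, at +98.4 kb, held a RUNX core and an ETS core close together. Of the 14 Veh LSD1 summits of both loci away from any TSS, 7 held the RUNX core, 5 ETS, 3 AP-1, 2 TCF/LEF and 1 GFI1. Of the 12563 such windows of the whole Veh list, 26.0% held RUNX, 28.6% ETS, 10.4% AP-1, 10.6% TCF/LEF and 7.26% GFI1. At the 13 GSK summits, most of them at the same sites but shifted by some bases, RUNX was held by 3, ETS by 5, AP-1 by 2, TCF/LEF by 3 and GFI1 by 0. The shares over the 9991 GSK windows were 20.5%, 25.04%, 7.68%, 9.13% and 6.32%, so the RUNX share of the Veh summits was not seen at the GSK summits. A match describes the letters only.

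Both loci held many LSD1 and H3K4me1 peaks, and LSD1 binding away from promoters was mostly found again after GSK. At Tcf7 there were 42 Veh peaks (7 TSS, 11 intron, 24 intergenic) and 33 GSK peaks (8 TSS, 6 intron, 19 intergenic). At Lef1 there were 38 in each treatment, of which 10 (Veh) and 9 (GSK) were TSS, 19 and 17 intron, and 9 and 12 intergenic. A Veh peak was counted as kept when a GSK peak of the same antibody overlapped it by at least 1 bp, which was the case for 28 of 42 at Tcf7 and 27 of 38 at Lef1. These counts pool 6 antibodies, whose whole Veh lists kept from 35.2% (H3K27ac) to 97.3% (H3K4me3). They are therefore set against the lists per antibody below.

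LSD1 itself had 8 Veh and 8 GSK peaks at Tcf7 and 9 and 9 at Lef1. Over the gene body and flanks (157 kb at Tcf7 and 234 kb at Lef1), the density of Veh LSD1 peaks was at percentile 95.5 of 21000 protein-coding genes for Tcf7 and at percentile 87.1 for Lef1. Over both loci 14 of 17 Veh LSD1 peaks were kept, while 54.6% of the whole Veh LSD1 list was. In the other direction, 14 of 17 GSK LSD1 peaks had a Veh peak, and 57.8% of the whole GSK list did. At Tcf7 alone 6 of 8 were kept (75%, Wilson 95% interval 40.9–92.9%) and at Lef1 8 of 9 (88.9%, 56.5–98.0%). These intervals cover counting error only, and peaks of a locus are not independent.

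Peak strength moved with these shares. Away from any TSS, 11 of 14 Veh LSD1 peaks of both loci were kept (78.6%, 52.4–92.4%), against 34.9% of the 12563 distal peaks in the list. With a −log10 p of 10 or more, 8 of 8 were kept at the loci and 70.9% in the list. Under 10, 3 of 6 were kept at the loci and 24% in the list. The loci held 8 of 14 distal peaks in the stronger class and the list 2914 of 12563, and the part of strength in the higher share was not tested. The division by strength was added after the data were seen.

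**Figure D1:**
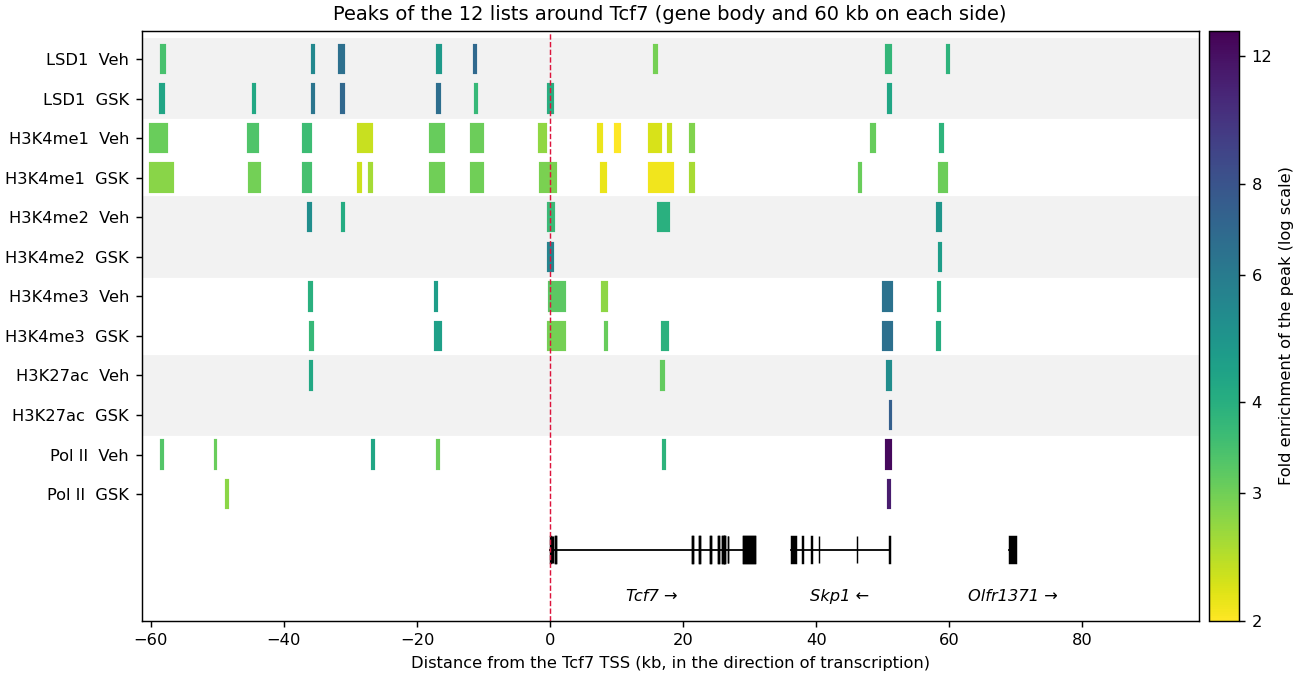
Peaks of the 12 lists (rows, 1 library each) against the distance from the Tcf7 TSS in kb along the direction of transcription. Each box spans a peak, drawn with a thin outline so that narrow peaks stay visible, and its colour is the peak's fold enrichment on a log scale; exons are black boxes, arrows give the direction relative to Tcf7, and the dashed line is the TSS. LSD1 appears at the TSS only in GSK, the 5 paired LSD1 peaks between −58.3 and −11.3 kb are in both treatments, and the darkest Pol II and H3K27ac boxes lie at the Skp1 promoter.

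At the Tcf7 promoter, LSD1 was listed in GSK only, and the marks that LSD1 can remove were stronger or wider in GSK. The LSD1 peak (chr11:52282544-52283389) had a fold enrichment (ChIP signal divided by that of the local background) of 4.01, and its −log10 p was 6.92. It covered both curated start sites. Of all genes, 9.74% had an LSD1 promoter peak in GSK only and 4.44% in Veh only, so this state by itself is common.

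H3K4me2 lay over the same bases, at chr11:52282419-52283257 in Veh and chr11:52282567-52283353 in GSK. Its fold was 3.65 in Veh and 5.57 in GSK, and its −log10 p was 9.05 and 14.8. The log2 ratio of the folds, 0.61, was at percentile 99.8 of the 8419 overlapping H3K4me2 pairs of the whole lists, whose median was 0.04.

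H3K4me1 in Veh lay at chr11:52283689-52284682, just upstream of the start site, with a fold of 2.73 over 994 bp. In GSK the peak ran over the start site, at chr11:52282166-52284596, with a fold of 2.92 over 2431 bp. The start at 52282595 therefore had H3K4me1 within 1 kb in GSK and none in Veh. The whole H3K4me1 list was also longer in GSK, with 40272 peaks against 34387.

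H3K4me3 at Tcf7 covered chr11:52280707-52283143 in Veh and chr11:52280828-52283357 in GSK, downstream of the start. The fold was 3.20 and 2.95 and the −log10 p 33.8 and 24.7. These peaks were wide and low. Their widths of 2437 and 2530 bp were at percentiles 96.8 and 97.6 of their lists, and among peaks of similar width (from 0.8 times theirs up to theirs divided by 0.8) the fold was at percentiles 6.92 and 4.55. The median fold of such peaks was 4.17 in Veh and 3.98 in GSK.

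Neither Pol II nor H3K27ac had a peak at a Tcf7 start site in either treatment. Among the 12997 genes with promoter H3K4me3 in both treatments (49.6% of all), 36.9% had no Pol II peak. The lack of Pol II is therefore not rare in these lists, and the share that lacked H3K27ac as well was not counted. At the neighbour Skp1 both antibodies had a peak in each treatment. Its Pol II fold was 12.5 in Veh and 11.3 in GSK, its H3K27ac fold 5.23 and 7.42, its H3K4me3 fold 6.44 and 6.56, and its LSD1 fold 3.77 and 4.31. Olfr1371 had no promoter peak in any list.

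The sequence of the Tcf7 promoter (RefSeq, GRCm38.p6, 250 bases before to 50 after position 52283014, chr11:52282965-52283264) is shown because these 4 signals meet on it, with no capitals since none of the motifs was present.
Tcf7 promoter: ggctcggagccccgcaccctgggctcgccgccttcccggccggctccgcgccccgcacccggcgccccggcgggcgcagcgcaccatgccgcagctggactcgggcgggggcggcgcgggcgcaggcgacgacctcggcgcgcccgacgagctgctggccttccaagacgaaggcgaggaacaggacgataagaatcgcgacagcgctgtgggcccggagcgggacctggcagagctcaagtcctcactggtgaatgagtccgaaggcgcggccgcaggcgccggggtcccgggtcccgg
It is 76.3% G and C, at percentile 97.2 of all promoters of this length (median 52.7%), and holds 45 CpG dinucleotides where the median promoter holds 7. Predicted transcripts start upstream of it, at 52283383, so for them the stretch is transcribed sequence. In GSK the LSD1, H3K4me1, H3K4me2 and H3K4me3 peaks each covered all of these bases.

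**Figure D2:**
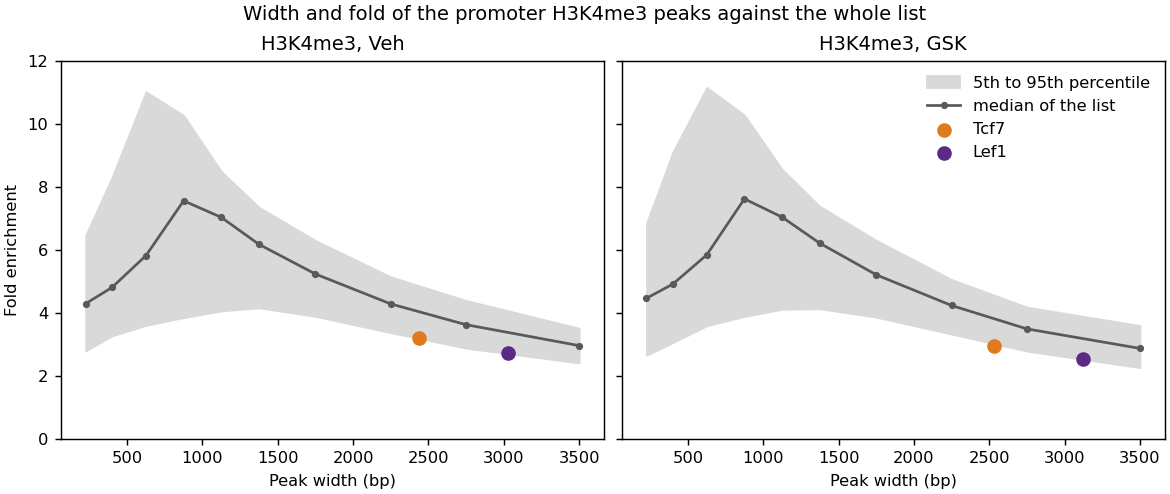
Fold enrichment of H3K4me3 peaks against peak width in bp for Veh (left) and GSK (right). The line is the median and the band the 5th to 95th percentile of the whole list in bins of width; the points are the main promoter peaks of Tcf7 and Lef1. Both genes sit below the median of peaks as wide as theirs in both treatments, at folds of 2.53 to 3.20.

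The Lef1 promoter looked alike in H3K4me3 and differed in LSD1. H3K4me3 covered chr3:131110342-131113367 in Veh and chr3:131110342-131113462 in GSK, from the first start sites past the one at +2.49 kb. The fold was 2.72 and 2.53, the −log10 p 41.6 and 39.3, and the width 3026 and 3121 bp, at percentiles 99.0 and 99.3 of the lists. Among peaks of like width the fold was at percentiles 7.22 and 6.22, with medians of 3.51 and 3.33.

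LSD1 was present in both treatments inside this H3K4me3 domain. In Veh it covered chr3:131111134-131112442 with a fold of 2.88, and in GSK chr3:131111739-131112337 at 2.55, where the −log10 p was 4.04. The GSK peak was within 1 kb of the +2.49 kb start alone. LSD1 in both treatments was also the state of 31.9% of all genes.

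The remaining signals here were weak. H3K4me2 (chr3:131109821-131110508, fold 2.46) was listed in Veh only, at percentile 0.03 of its list, and Pol II (chr3:131111826-131112033, fold 2.34, −log10 p 3.04) in GSK only, near the authors' cutoff of p = 0.001. Of all genes, 7.33% had promoter Pol II in Veh only, 2.94% in GSK only and 22% in both. No H3K4me1 or H3K27ac peak reached the first 3 start sites.

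The internal start of Lef1 at +46.0 kb had another set of marks. H3K4me1 spanned it in both treatments, at folds of 2.47 and 2.47, over 2772 bp in Veh and 2730 bp in GSK. H3K4me2 (fold 2.77) and H3K27ac (chr3:131157159-131157378, fold 2.80) were listed in Veh only, and H3K4me3 (chr3:131156648-131157191, fold 2.86) in GSK only. An LSD1 peak stood on each side of it in both treatments, at +43.8 and +47.3 kb, both beyond 1 kb.
The promoter of this start (RefSeq, GRCm38.p6, chr3:131156044-131156343) is shown because it was the only start site of either gene whose promoter held a searched motif, marked in capitals.
Lef1 +46.0 kb promoter: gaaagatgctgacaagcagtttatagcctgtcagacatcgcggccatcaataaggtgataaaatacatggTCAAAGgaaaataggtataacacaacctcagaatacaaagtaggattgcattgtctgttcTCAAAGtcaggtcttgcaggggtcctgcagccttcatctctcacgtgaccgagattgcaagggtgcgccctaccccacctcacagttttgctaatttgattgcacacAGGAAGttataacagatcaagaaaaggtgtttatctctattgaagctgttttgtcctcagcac
It held the TCF/LEF core 2 times and the ETS core 1 time. Of all 32851 promoters of this length 16.0% held the TCF/LEF core and 35.4% the ETS core. In contrast to the Tcf7 promoter, it had 5 CpG and was 43.7% G and C.

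**Figure D3:**
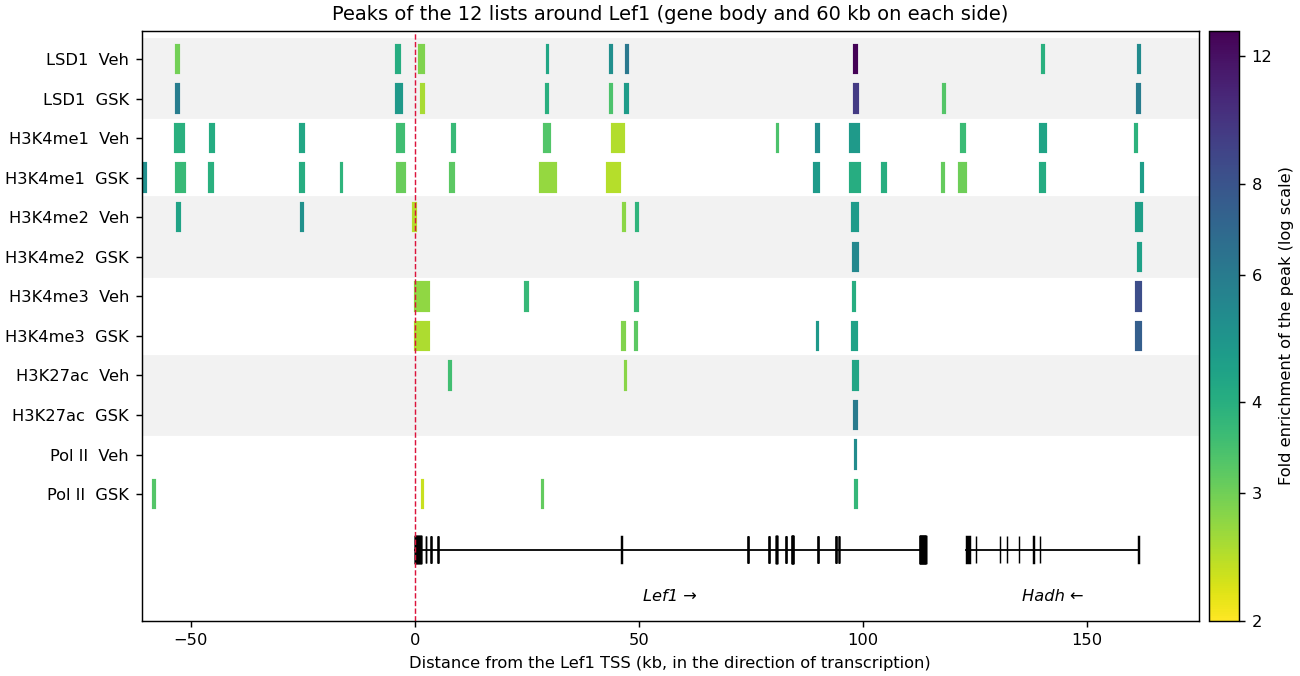
Peaks of the 12 lists (rows, 1 library each) against the distance from the Lef1 TSS in kb along the direction of transcription. Boxes, outlines, exons, arrows and the colour scale (fold enrichment, log scale) follow the map of Tcf7. The element at +98.2 kb is filled in all 12 rows and holds the darkest LSD1 box, while the start at 0 kb holds a wide, pale H3K4me3 box in both treatments.

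The strongest LSD1 peak of either locus was in an intronic element near the 3′ end of Lef1, at +98.2 kb (chr3:131207405-131209607), which had a peak in all 12 lists. LSD1 had a fold of 12.8 in Veh and 9.39 in GSK, at percentiles 99.5 and 98.2 of the lists, with a −log10 p of 58.0 and 27.6. H3K4me1 was 4.70 in Veh and 4.06 in GSK, H3K4me2 4.70 and 5.41, and H3K4me3 4.06 and 4.43. H3K27ac was 4.29 and 5.99 and Pol II 5.25 and 3.73. It was the only Pol II peak of the Lef1 locus in Veh. Of the 56551 distal regions built from all lists, 0.921% held all 6 antibodies and 55 regions had a peak in all 12 lists.

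Tcf7 had a 6-antibody element too, in an intron at +16.7 kb (chr11:52264504-52268168), but there only H3K4me1 was in both treatments. LSD1 (fold 2.96), H3K4me2 (3.95), H3K27ac (3.14) and Pol II (3.88) were listed in Veh only and H3K4me3 (3.92) in GSK only. The LSD1 peak (chr11:52266936-52267447) overlapped H3K4me1 but no peak of the other antibodies, unlike at the Lef1 element. H3K4me1 formed 2 Veh peaks, at 2.34 and 2.24, that were 1 GSK peak of 3665 bp at 2.07. This was the only Pol II peak inside the Tcf7 gene.

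Upstream of Tcf7 lay a series of LSD1 elements in intergenic sequence. At −31.2 kb LSD1 had a fold of 6.58 in Veh and 6.96 in GSK, with a −log10 p of 26.8 and 25.7. At −35.5 kb it was 5.44 and 6.28, next to H3K4me1 (3.59 and 3.48) and H3K4me3 (3.97 and 3.72) in both treatments, while H3K4me2 (5.18) and H3K27ac (4.23) had peaks in Veh only. At −16.7 kb it was 4.72 and 6.63, with H3K4me1 (3.10 and 3.00) and H3K4me3 (4.57 and 4.52) in both and Pol II (3.04) in Veh only. At −58.3 kb it was 3.44 and 4.32, with H3K4me1 in both and Pol II (3.30) in Veh only.

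The peak at −11.3 kb went the other way. Its LSD1 fold was 6.91 in Veh and 3.72 in GSK, and the −log10 p was 18.6 and 5.87. The log2 ratio of −0.89 was at percentile 1.41 of the 11597 LSD1 pairs. Here too the folds were read at different summits, 52294270 in Veh and 52294161 in GSK. H3K4me1 around this LSD1 peak was 3.04 and 3.00. Further LSD1 peaks of the locus were in 1 treatment: −44.7 kb (4.22, inside H3K4me1 of both treatments) in GSK only, and +59.9 kb (3.88) beside the one in the +16.7 kb intron in Veh only.

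**Figure D4:**
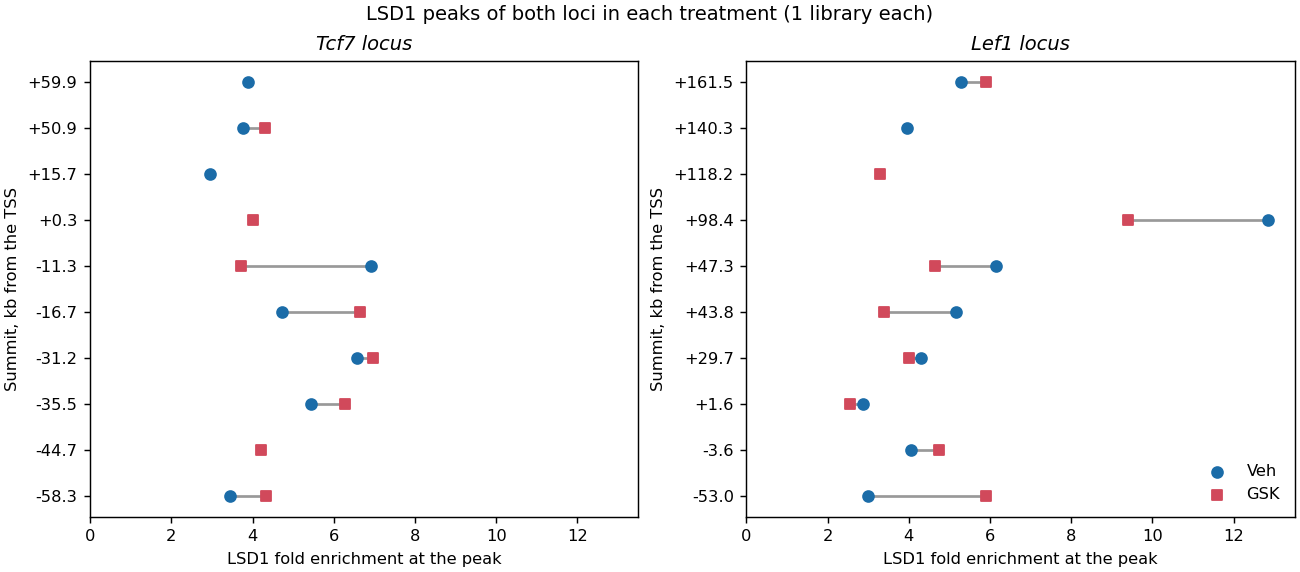
LSD1 fold enrichment (x axis) of every LSD1 peak at Tcf7 (left) and Lef1 (right), ordered by the summit's distance from the TSS in kb. Circles are Veh and squares GSK, 1 library each, and a grey line joins overlapping peaks; a lone symbol has no partner in the other treatment. In Lef1 the joined peaks from +1.6 to +98.4 kb have the circle on the right, and the other joined peaks have it on the left.

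At Lef1 the LSD1 pairs split by place. Inside the gene, 5 of 5 pairs had the lower fold in GSK, while the pairs at −53.0 kb, −3.6 kb and the Hadh promoter had the higher fold in GSK. This split was noticed after the values were seen. In addition to the +98.4 kb peak, +43.8 kb was 5.16 in Veh and 3.39 in GSK, +47.3 kb 6.14 and 4.66, and +29.7 kb 4.31 and 3.99. In the whole list 38.1% of pairs had the lower fold in GSK, with a median log2 ratio of 0.12. The middle 95% of pairs ran from −0.75 to 0.83, a range that holds all of these intragenic values.

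Upstream of Lef1, the −53.0 kb peak was 2.99 in Veh and 5.91 in GSK, with a −log10 p of 3.77 and 11.1. Its log2 ratio of 0.98 was at percentile 99.2 of pairs, outside that range. The folds were read at different summits, 131057343 in Veh and 131057529 in GSK. The region (chr3:131056715-131059008) also had H3K4me1, at 3.97 and 3.67, and H3K4me2 in Veh only, at 4.39. The −3.6 kb peak was 4.06 and 4.75, next to H3K4me1 at 3.56 and 3.06. LSD1 in 1 treatment was seen at +140 kb in a Hadh intron (Veh, 3.96) and at +118 kb (GSK, 3.29). The Hadh promoter had LSD1 at 5.30 and 5.91 and H3K4me3 at 8.35 and 7.43, with no Pol II.

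**Figure D5:**
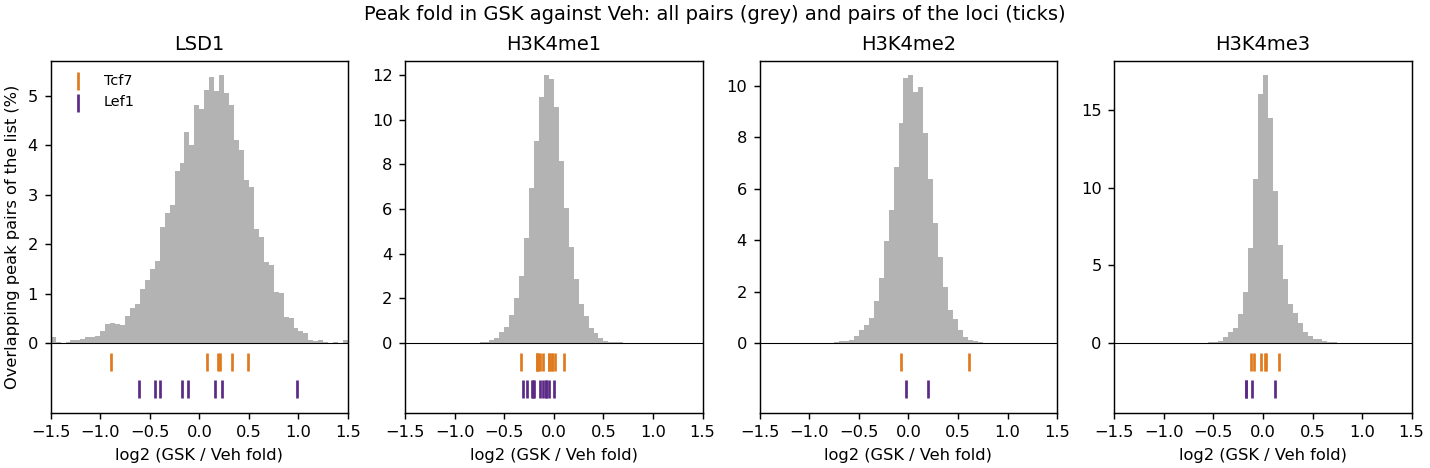
Distribution of the log2 ratio of peak fold, GSK over Veh, over all overlapping peak pairs of the LSD1, H3K4me1, H3K4me2 and H3K4me3 lists (grey bars, percent of pairs, values beyond 1.5 in the end bars), with the pairs of Tcf7 and Lef1 as ticks below. Ticks to the right of 0 have the higher fold in GSK. The Tcf7 promoter H3K4me2 pair at 0.61 lies at the right edge of its distribution, as does the Lef1 −53.0 kb LSD1 pair at 0.98, and the Tcf7 −11.3 kb LSD1 pair at −0.89 lies at the left edge.

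H3K4me1 was the most frequent mark of both loci. Tcf7 had 14 Veh and 13 GSK peaks that covered 17.4 and 20.6 kb, and Lef1 13 and 16 peaks that covered 15.8 and 21.5 kb. The whole lists, of 34387 Veh and 40272 GSK peaks, covered 34.1 and 41.2 Mb, so wider coverage in GSK was not particular to the loci. For H3K4me1 the study's own sequencing summary gives more usable reads in GSK than in Veh, and the part of depth was not tested. Over both loci 23 of 27 Veh peaks were kept and 24 of 29 GSK peaks had a Veh partner, against 87.8% and 75.2% of the whole lists. Of the 23 pairs, 21 had the lower fold in GSK, and in the whole list 63.6% did, with a median log2 ratio of −0.06. Relative to that median, 8 of the 23 pairs had the higher ratio. Per pair the log2 ratio was small, from −0.33 to 0.10. Histone folds are averages over the peak, and paired peaks differed in width between treatments. The pairs at Tcf7 +18.0 and +15.7 kb share the same GSK peak. The part of width in the folds was not tested. Regions away from promoters with H3K4me1 in GSK only were 1 at Tcf7 and 3 at Lef1, of 34 distal regions in all. GSK only was the H3K4me1 state of 12.7% of all distal regions and Veh only that of 5.6%, which 3 of the 34 had.

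The GSK lists of H3K4me2 and H3K27ac were shorter than the Veh lists, with 9437 against 15219 and 2751 against 7410 peaks. The study's own sequencing summary gives fewer usable reads for GSK than for Veh in both. For H3K4me3 and Pol II it gives more for GSK. The authors also evened out read numbers by random picking, and whether peaks were called on the picked reads is not stated. The part of depth in these losses was not tested. H3K4me2 kept 4 of 12 Veh peaks over both loci (whole list 55.3%), and 4 of 4 GSK peaks had a Veh partner (89.2%). H3K27ac kept 2 of 6 (35.2%), with 2 of 2 in the other direction (95%). H3K4me3 kept 10 of 11 (97.3%), with 10 of 13 in the other direction (91.1%). Pol II kept 2 of 7 (39.1%), with 2 of 6 in the other direction (39.6%), and its 5 losses were all at Tcf7, at folds of 3.04 to 4.29.

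The distal H3K27ac peaks listed in Veh only were at Tcf7 −36.3 kb (4.23) and +16.7 kb (3.14) and at Lef1 +8.2 kb (chr3:131117849-131118379, fold 3.51, in a region with H3K4me1 at 3.68 and 3.20). Of all distal regions, 3.5% had H3K27ac in Veh only and 5.9% H3K4me2 in Veh only, against 3 and 6 of the 34 here. All of these H3K27ac folds were under 4.5, where 77.6% of the Veh list lay but 27.5% of the GSK list. At Lef1, Pol II was in GSK only at −58.2 kb (3.30) and within the +29.7 kb element (3.13). At Tcf7, Pol II was in GSK only at −48.6 kb (2.77) and in Veh only at −27.7 kb (4.29) and −50.3 kb (3.07), in addition to the places given above. The element at +59.1 kb held 4 antibodies, with H3K4me1 (3.83 and 3.06), H3K4me2 (4.86 and 4.61) and H3K4me3 (4.02 and 4.08) in both treatments.

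Partners of TCF-1 and LEF-1 were read at their promoters, from a list of 30 genes of the Wnt pathway and of TCF cofactors. LSD1 was at 18 of 30 in both treatments (31.9% of all genes), at 3 in Veh only (4.44%) and at 6 in GSK only (9.74%). H3K4me3 was at 28 in both (49.6%), so the list held more marked promoters than all genes do. The part of this in the LSD1 shares was not tested. The median log2 GSK to Veh ratio of LSD1 was 0.14 over the 18, beside 0.20 over the 8348 genes with LSD1 in both. Ctnnb1, which encodes β-catenin, had LSD1 at 9.59 in Veh and 10.5 in GSK and Pol II at 16.8 and 11.7. The GSK-only LSD1 promoters with the highest folds were Dvl3 (6.81), Axin1 (5.15), Nlk (4.34) and Ctnnbip1 (3.39). Dvl3 relays the Wnt signal, Axin1 is a scaffold of the complex that destroys β-catenin, Nlk is a kinase that phosphorylates TCF proteins and Ctnnbip1 blocks β-catenin from TCF. In Veh only were Csnk1a1 (3.30), a kinase of the destruction complex, Bcl9 (3.26), a β-catenin co-activator, and Tle6 (2.84), a TLE family member.

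H3K27ac was at 4 of these 30 promoters in both treatments (8.25% of all genes) and at 3 in Veh only (12.3%), namely Pygo2 (4.76), Gsk3a (4.42) and Tle4 (3.70). It was in GSK only at Axin2 (6.75), a feedback inhibitor and a common target of TCF factors, a state that 0.332% of all genes had. Pol II was at 7 in both, a share near the 22% of all genes. It was in Veh only at Pygo2 (4.91) and Tle3 (4.22), beside 7.33% of all genes, and in GSK only at Lrp6 (4.25), a Wnt co-receptor, beside 2.94%.

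The second list held 15 genes tied to TCF-1 in naive and memory T cells. LSD1 was at 5 in both treatments, a share near the 31.9% of all genes, and at 3 in each treatment alone (4.44% of all genes in Veh only and 9.74% in GSK only). Promoters with LSD1 in Veh only included Xcl1 (5.82), a chemokine of progenitor-like cells, and Ccr7 (4.09), a receptor that guides cells to lymph nodes. It was in GSK only at S1pr1 (4.41), an exit receptor of lymphoid tissue, Myb (4.14), a factor of stem-like T cells, and Klf2 (4.09), which drives S1pr1. Over the 5 the median log2 ratio of LSD1 was −0.02. H3K4me3 was at 12 in both (49.6% of all genes). H3K27ac was at 1 in both (Bcl6) and at 2 in Veh only, Eomes (3.21) and Satb1 (3.13), near the 8.25% and 12.3% of all genes. Pol II was at 6 in both (22% of all genes), in Veh only at Myb (3.37) and Satb1 (3.27), and in GSK only at Foxo1 (5.08) and Slamf6 (3.00), beside 7.33% and 2.94% of all genes. Like Tcf7, S1pr1 (H3K4me3 at 2.59 and 2.48) and Il7r, the receptor chain for IL-7 (3.42 and 3.64), had neither Pol II nor H3K27ac. S1pr1 also had the states of Tcf7 for LSD1 (GSK only), H3K4me1 and H3K4me2 (both treatments). Il7r had no peak of these antibodies.

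The promoter values closest to those of Tcf7 over the 12 lists were found in Pcdh7, Fgf11 and G630025P09Rik among 15483 genes with a peak. The mean absolute difference in percentile was 4.06, 4.41 and 4.41, where the median gene had 26.0 and Lef1 had 14.0. Pcdh7 had LSD1 (3.67) in GSK only, and also H3K4me2 (5.03), which Tcf7 had in both treatments. Fgf11 had LSD1 in GSK only (3.37), H3K4me2 at 3.56 and 4.19 and H3K4me3 at 3.69 and 4.05. G630025P09Rik took the same peak values for most lists. Closest to Lef1 were Ing5 (3.64), Sp140 (3.76) and Gfi1 (3.98), where the median gene had 26.5. Gfi1, which encodes a repressor that recruits LSD1, had LSD1 at 3.00 and 2.99, H3K4me3 at 2.63 and 2.40, and Pol II in GSK only at 2.59. Unlike Lef1, Gfi1 had no H3K4me1 peak in either treatment. Each gene took the highest value over its start sites, so H3K27ac and H3K4me1 of Lef1 came from the +46.0 kb start. So did its H3K4me2 value in Veh (2.77) and its H3K4me3 value in GSK (2.86), and the likeness mixes separate promoters.

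As a check of the cell type, H3K4me3 marked the promoters of 6 of 6 T-cell and CD8 markers, and of none of Cd4, 4 B-cell markers and 3 NK markers. It marked 1 of 4 myeloid markers, Cd14 (6.86 and 6.42).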

How the data were processed

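Reads of the 12 ChIP libraries were mapped uniquely to mm10 with Bowtie2 by the authors, duplicates were removed, and MACS2 called peaks per library with input as control at a p cutoff of 0.001. Every peak carries a fold enrichment that the authors deposited (the ratio of ChIP signal to that of the local background, at the summit for LSD1 and Pol II and averaged over the region for histone marks), and also a −log10 p, a −log10 q and a whole-number score, which was not used. The deposited narrow lists also give the summit. The histone lists start at a −log10 q of about 3 and are stricter than the others. Libraries were made for 6 antibodies in 2 treatments, and 4 input samples, which have no peak list, were not analysed here. Depth is unknown from the peak lists, which carry no read numbers, and it was not used to scale values. To compare signals, the authors drew equal read numbers at random from the libraries. It is not stated whether the peak lists rest on these reads.

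Peaks were joined to curated RefSeq transcripts of GRCm38.p6 (the mm10 build, positions counted from 1) with Python 3.11.15, pandas 2.3.3 and NumPy 2.4.6. TSS peaks overlapped a TSS ± 1 kb. Other peaks were placed as exon, intron or intergenic by their summit (LSD1 and Pol II) or midpoint (histone marks). Peaks of all lists that overlapped were merged into regions. Pairs are overlapping Veh and GSK peaks of an antibody. Percentiles give a rank in the whole list, and shares have Wilson 95% intervals. No test was run, since each group had 1 library. The overlap code was tested on simulated intervals. Promoter sequences matched the genome. Named regions held 3 or more antibodies, or LSD1, H3K27ac or Pol II in 1 treatment only. From the 2 gene lists, genes were named where LSD1, H3K27ac or Pol II differed in state, up to 4 per antibody and direction by fold, and the 3 genes most like each member. Every LSD1 peak of the loci was also given, and Ctnnb1, Il7r and Bcl6 were named after their values were seen. The values of 1 listed gene are not reported here. The members and lists were chosen with earlier results of these data known.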

Additional observations from a re-analysis of the deposited data

How the results depend on the processing

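Each library stood alone, so no replicate could be left out. No paired analysis was possible because each antibody and treatment had 1 library, and the inputs, which share numbers, carry no peak list. Of 137 comparisons over 34 results, 116 stayed within their interval or within 1.5 times, 19 moved beyond it and 2 changed sign. The LSD1 shares kept were among those that stayed under every alternative. Their intervals, 40.9–92.9% from 8 peaks at Tcf7 and 56.5–98.0% from 9 at Lef1, are wide, so staying within them says little. Most results that moved rest on 1 to 3 peaks. With a 50% reciprocal overlap, 42.9% of Tcf7 H3K4me1 peaks (6 of 14) and 0% of Tcf7 H3K27ac peaks were kept. At a −log10 p of at least 10, the kept share was 0% for H3K4me2 at Tcf7 (of 2 peaks) and Lef1 (of 1), and 100% for H3K27ac at both loci, Pol II at Tcf7 (1 peak each) and H3K4me3 at Lef1 (2 peaks). At that level the antibodies with a promoter peak numbered 1 in Veh and 2 in GSK at Tcf7, and 2 and 2 at Lef1, so the GSK-only LSD1 peak of the Tcf7 promoter was lost while H3K4me2 was then in GSK only. With both lists cut to equal length, 100% of H3K27ac peaks were kept at both loci (1 peak each), Lef1 had 3 antibodies at its promoters in Veh, H3K4me1 in GSK only was at 0 distal Tcf7 regions, and LSD1 in GSK only was at 2 distal Lef1 regions. Without promoters of other genes, 0% of H3K27ac (of 2) and of Pol II (of 5) peaks were kept at Tcf7. Ranked by −log10 p in place of fold, the GSK minus Veh percentile of promoter H3K4me1 became 31.2 at Tcf7 and 0.124 at Lef1, both negative by fold; these ranks count genes without a peak as 0 and come from lists of unequal length, so they are no measure of change at a gene. The cause of these changes was not tested beyond the smaller number of peaks. Pol II at Lef1 could not be recomputed at a −log10 p of at least 10, where no Veh peak was left.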
